A study of Mus musculus with 15 samples.

Results

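Integrins and cadherins are the main families of receptors by which mesenchymal cells hold on to matrix and to each other. They were described here in mesenchymal cells sorted from thymus and lymph nodes of C57BL/6 mice aged 2 weeks. The members were the genes with a row of their own on the array whose symbol is that of an integrin alpha chain, an integrin beta chain or a numbered cadherin. There were 49 such genes among 18718 genes tested: 18 alpha chains, 8 beta chains and 23 cadherins. The cadherins included the classical type I and type II genes and 5 others (Cdh13, Cdh16, Cdh17, Cdh23 and Cdh26), so the set is wider than the classical cadherins. Where a gene had several rows, which was so for 3 members, the brightest row, by its mean on the 15 arrays, was used.

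All sorted cells were positive for PDGFRβ, a receptor that marks mesenchymal cells. From the thymus came PDPN+BP3- cells and PDPN- cells. From pooled inguinal, axillary and brachial lymph nodes came PDPN+BP3-, PDPN+BP3+ and PDPN- cells, where PDPN is podoplanin and BP3 is the product of Bst1. The PDPN- cells of both organs were also sorted for Ly51, the product of Enpep. The labels give no mutant allele and no treatment other than the digestion of the tissue. Arrays were of the Affymetrix Mouse Gene 1.1 ST type, with 3 for each of the 5 populations and 1 from each of 3 experiments. Thymus cells came from pools of 3 mice and lymph node cells from pools of 10 to 11, so pool size and organ cannot be told apart.

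An integrin is a pair of an alpha and a beta chain that spans the membrane and links matrix outside to actin inside through talin, kindlin and other adaptors. The alpha chain largely sets the ligand: some alpha chains bind collagen, some laminin, and others the short RGD motif of fibronectin and vitronectin, while several are found on white blood cells. Cadherins bind like molecules on the neighbouring cell and are tied to actin by catenins. In vessel walls, integrins hold pericytes and smooth muscle cells to the basement membrane shared with the endothelium, and Cdh2 joins these mural cells to endothelial cells.

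Values are RMA signals on a log2 scale, and differences are given as log2 difference ± its standard error from limma (n = 3 arrays in every population). Adjusted p-values are Benjamini-Hochberg values over all 18718 genes, with a threshold of 0.05. Levels were compared between populations for the same gene and never between genes, since probes differ in brightness. No measure of background was used, so the median of the table, 3.80, served as a mark: 23 of the 49 members had a population mean above it and 26 had none. A difference of array signals is not a ratio of RNA, and in sorted populations fewer cells with a transcript and less of it per cell cannot be told apart. Array medians ran from 3.77 to 3.885 except in thymus PDPN+BP3- replicate 1, where the median was 3.58.

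RNA of the sort antigens followed the sort. Pdpn averaged 8.16 to 9.11 in the podoplanin-positive populations and 3.01 to 3.41 in the PDPN- populations. Bst1 averaged 8.74 in PDPN+BP3+ cells and 2.18 to 3.30 elsewhere. Enpep averaged 7.69 to 8.07 in the PDPN- populations and 3.74 to 4.61 in the others, and Pdgfrb 8.94 to 10.61 in all populations. The 11 mural markers other than Itga7 averaged 9.36 to 9.58 on the thymus PDPN- arrays and 9.09 to 9.23 on the lymph node PDPN- arrays. On the PDPN+BP3- arrays they averaged 5.96 to 6.12 in thymus and 6.51 to 6.90 in lymph node, and on the PDPN+BP3+ arrays 7.18 to 7.21. The 7 measured markers of fibroblasts and lymphoid stroma averaged 8.08 to 8.86 on all PDPN+ arrays and 4.45 to 5.66 on PDPN- arrays. They include Pdpn and Bst1, whose products were used in the sort, so part of that gap was set by the sort. In PDPN+BP3+ against lymph node PDPN- cells, 4 of the 7 were higher and 1 lower. Cd34 and Lum averaged 3.77 and 6.16 in PDPN+BP3+ cells, against 4.44 and 6.62 in lymph node PDPN- cells. Markers of B cells averaged no more than 2.46 on any array. The 8 myeloid markers averaged 2.45 to 3.13 on thymus arrays and 2.80 to 2.86 in lymph node PDPN- cells. They averaged 3.29 to 3.50 in lymph node PDPN+BP3- and 3.48 to 3.62 in PDPN+BP3+ cells. Against lymph node PDPN- cells, 3 of the 8 were higher and 1 lower in each of these populations. Cd14 averaged 5.09 and 6.99 in them against 2.39 in lymph node PDPN- cells, but Cd68 averaged 5.75 and 5.18 against 6.73. Csf1r, Adgre1, Fcgr3 and Flt3 averaged 1.79 to 2.62 over all populations. The 4 glial markers other than Cdh19 averaged 3.14 to 3.28 on the lymph node PDPN+BP3- arrays and 2.31 to 2.80 elsewhere. S100b alone was raised there, at 5.38 against 2.30 to 3.33 elsewhere. Sox10, Foxd3 and Erbb3 averaged 2.25 to 2.86 over all populations. Markers of T lineage cells averaged 3.37 to 4.71 on thymus PDPN+BP3- arrays, 4.74 to 5.36 on thymus PDPN- arrays and 2.67 to 2.83 on lymph node arrays. Markers of epithelium averaged 3.53 to 4.31, 4.21 to 4.58 and 2.75 to 2.94 on the same arrays. Between the thymus subsets, 4 of 10 T lineage and 2 of 8 epithelium markers were lower in PDPN+BP3- cells and 0 were higher.

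In all, 30 of the 49 members passed the threshold in at least 1 of the 6 pairwise comparisons, against 48.8% of all genes. Cdh2 passed in all 6, and 19 members passed in none. Between PDPN+BP3- and PDPN- cells of the thymus, 10 members were higher and 11 lower in PDPN+BP3- cells, which is 42.9% of members against 28.5% of all genes (10.3% higher and 18.2% lower). Between the same populations of the lymph node, 8 were higher and 10 lower, 36.7% of members against 23.1% of all genes (13.4% higher and 9.79% lower). The alpha chains moved most often: 11 of 18 passed in thymus and 10 of 18 in lymph node, against 3 and 2 of 8 beta chains and 7 and 6 of 23 cadherins. The median size of the difference among alpha chains was 0.81 in thymus and 0.52 in lymph node, where all genes had 0.22 and 0.18. The signed medians of the members were 0.05 in thymus and -0.06 in lymph node, against -0.05 and -0.01 over all genes, so members moved in both directions. Arrays of the populations compared did not overlap for 23 members in each organ, against 38.3% of all genes in thymus and 34.6% in lymph node.

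No array is common to the subset comparison of the thymus and that of the lymph node. Of the members that passed, 14 passed in both organs with the same sign, which is 66.7% of the thymus calls and 77.8% of the lymph node calls, and 0 passed with opposite signs. Over all genes, calls of the same sign in both organs made up 45.6% of the thymus calls and 56.2% of the lymph node calls, and calls of opposite sign 3.50% and 4.32%. Higher in PDPN+BP3- cells of both organs were Cdh11, Itga11, Itga9, Itga5 and Itgb3. Higher in PDPN- cells of both were Itga7, Itga4, Cdh6, Cdh2, Itga10, Itga6, Itga1, Cdh24 and Itgb1.

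**Figure D1:**
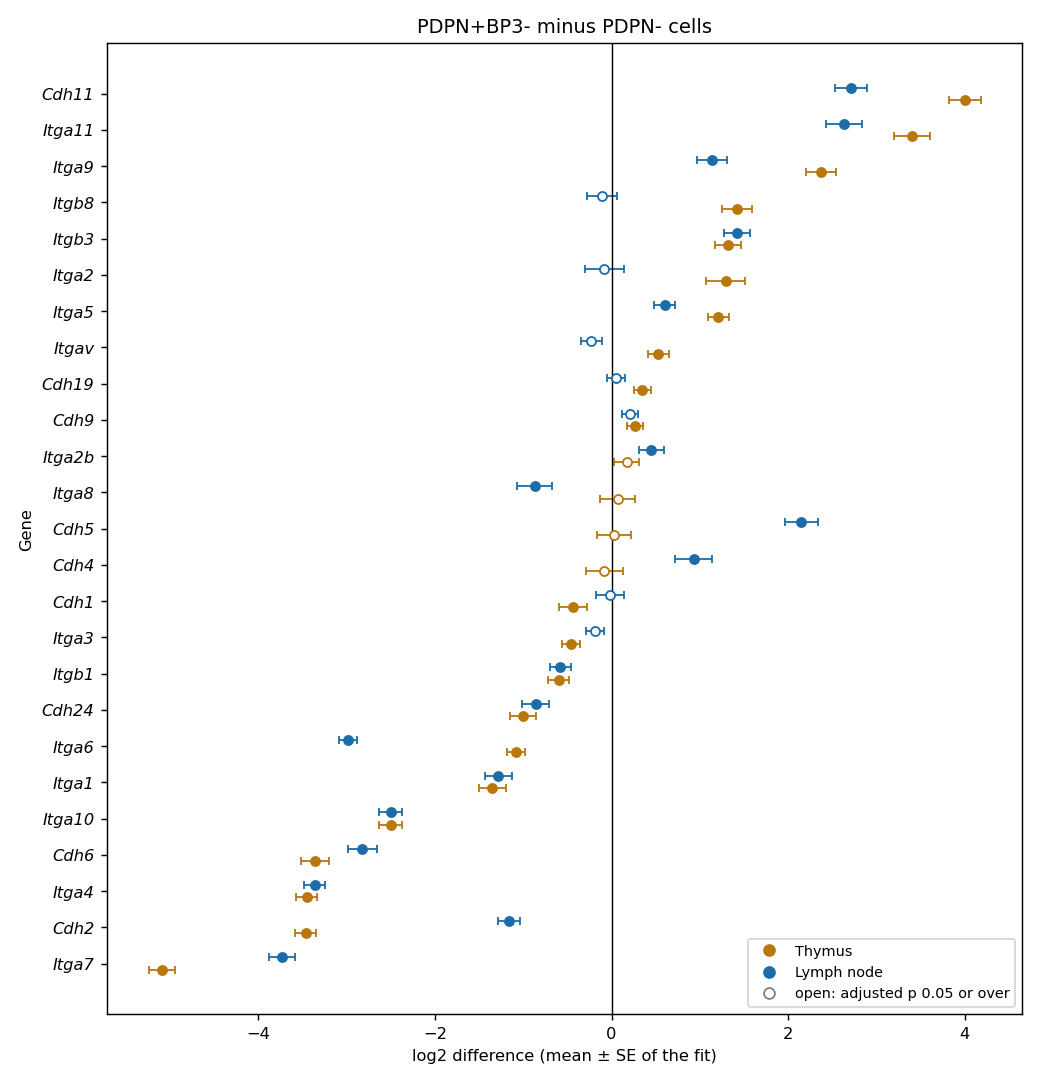
Log2 difference between PDPN+BP3- and PDPN- cells (x axis) for each member past the threshold in thymus or lymph node (y axis), as mean ± SE of the limma fit with 3 arrays per population. Filled points have an adjusted p under 0.05. Itga7 lies at the negative end in both organs and Cdh11 at the positive end, while Cdh5, Cdh4 and Itga8 are filled in lymph node but open in thymus.

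Promoter sequences were available for 31 of the 49 members in a RefSeq table of build GRCm38.p6, as windows of 300 bases from 250 before to 50 after a gene's start. Those of the 2 members with the largest differences of each sign in thymus, among members called alike in both organs that have a promoter in this table, are shown because these genes move together by subset. Itga4 (chr2:79255176-79255475, plus strand) and Cdh6 (chr15:13173626-13173925, minus strand) were higher in PDPN- cells. Itga11 (chr9:62677605-62677904, plus strand) and Itga9 (chr9:118711442-118711741, plus strand) were higher in PDPN+BP3- cells. Sequences run 5′ to 3′ on the gene's strand, and capitals mark matches to GGGCGG, to TGGGAA or to the CArG box, searched on both strands.
Itga4: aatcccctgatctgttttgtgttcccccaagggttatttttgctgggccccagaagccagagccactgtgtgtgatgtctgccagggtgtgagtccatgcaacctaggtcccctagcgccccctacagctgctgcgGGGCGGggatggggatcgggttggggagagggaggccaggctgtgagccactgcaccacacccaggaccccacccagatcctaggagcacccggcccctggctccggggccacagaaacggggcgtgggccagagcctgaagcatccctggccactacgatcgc
Cdh6: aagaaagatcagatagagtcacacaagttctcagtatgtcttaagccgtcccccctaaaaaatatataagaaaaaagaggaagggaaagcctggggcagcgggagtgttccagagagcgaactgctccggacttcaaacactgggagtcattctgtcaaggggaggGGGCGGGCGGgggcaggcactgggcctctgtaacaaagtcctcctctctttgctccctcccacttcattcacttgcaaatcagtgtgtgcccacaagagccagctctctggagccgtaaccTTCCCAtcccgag
Itga11: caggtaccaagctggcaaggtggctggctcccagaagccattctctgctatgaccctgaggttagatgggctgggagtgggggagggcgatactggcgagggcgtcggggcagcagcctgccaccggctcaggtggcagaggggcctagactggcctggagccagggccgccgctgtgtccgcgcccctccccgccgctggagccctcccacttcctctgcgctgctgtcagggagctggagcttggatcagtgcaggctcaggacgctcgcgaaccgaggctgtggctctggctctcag
Itga9: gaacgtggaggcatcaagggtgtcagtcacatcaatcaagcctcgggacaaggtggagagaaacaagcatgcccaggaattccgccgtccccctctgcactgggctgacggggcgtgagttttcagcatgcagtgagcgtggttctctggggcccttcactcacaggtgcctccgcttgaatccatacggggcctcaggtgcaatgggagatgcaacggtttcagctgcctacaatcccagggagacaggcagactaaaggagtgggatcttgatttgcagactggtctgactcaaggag
The Itga4 window held 1 match to GGGCGG. The Cdh6 window held 2 matches to GGGCGG that overlap each other and 1 to TGGGAA on the opposite strand. The Itga11 and Itga9 windows held none of the 3 motifs, which says only that these letters are not in these windows. Over all 32851 promoter windows of the table, GGGCGG was found in 35.7%, TGGGAA in 25.6% and the CArG box in 1.63%. Among the 31 members, 13 had a window with GGGCGG, 5 with TGGGAA and 1, Itgb6, with the CArG box. These are counts of genes, which have 35 windows together, while the shares over the table are of windows.

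The 4 alpha chains of collagen receptors divided by subset. Itga1 and Itga10 were higher in PDPN- cells and Itga11 was higher in podoplanin-positive cells, while Itga2 followed the organ and BP3 as well. Itga11, the alpha chain of a receptor for fibrillar collagen, read 3.03, 3.04 and 2.79 in thymus PDPN- cells and 4.86, 4.04 and 4.06 in lymph node PDPN- cells. It read 6.26, 6.59 and 6.20 in thymus PDPN+BP3-, 6.99, 7.10 and 6.75 in lymph node PDPN+BP3- and 6.60, 6.38 and 6.89 in PDPN+BP3+ cells. All 9 podoplanin-positive arrays lay above all 6 PDPN- arrays. The difference was 3.40 ± 0.20 in thymus (adjusted p 9.58e-10), 2.63 ± 0.20 in lymph node PDPN+BP3- (3.37e-08) and 2.30 ± 0.20 in PDPN+BP3+ cells (1.52e-07). Among PDPN- cells, Itga11 was also higher in lymph node than in thymus (1.37 ± 0.20, adjusted p 0.000199), with lymph node replicate 1 the highest of the 6.

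Itga10, another collagen-binding chain, was 5.42 to 5.66 on all PDPN- arrays and 2.67 to 3.18 on all podoplanin-positive arrays. Its differences from PDPN- cells were -2.50 ± 0.13 in thymus, -2.50 ± 0.13 in lymph node PDPN+BP3- and -2.65 ± 0.13 in PDPN+BP3+ cells. Organ and BP3 brought no call (-0.15 to -0.10 in those comparisons). Itga1, which pairs with Itgb1 and favours basement membrane collagen, averaged 9.61 ± 0.18 (SD, n = 3) in thymus PDPN- and 9.30 ± 0.17 in lymph node PDPN- cells. In PDPN+BP3- cells it averaged 8.26 ± 0.20 in thymus and 8.01 ± 0.24 in lymph node, which were lower than in PDPN- cells (differences of -1.35 ± 0.15 and -1.28 ± 0.15). PDPN+BP3+ cells, at 8.96 ± 0.16, were above PDPN+BP3- cells (0.95 ± 0.15, adjusted p 0.000217), and their difference from PDPN- cells did not pass (-0.34 ± 0.15).

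Itga2, a collagen receptor chain also known from platelets and epithelium, read 3.00, 2.93 and 2.89 in thymus PDPN- cells and 4.70, 4.70 and 4.68 in lymph node PDPN- cells. It read 3.79, 4.58 and 4.33 in thymus PDPN+BP3-, 5.09, 4.14 and 4.61 in lymph node PDPN+BP3- and 5.92, 5.26 and 5.47 in PDPN+BP3+ cells. The thymus PDPN- arrays were the lowest of the 15 and the PDPN+BP3+ arrays the highest. Itga2 was higher in PDPN+BP3- cells than in PDPN- cells of the thymus (1.29 ± 0.22), with no call in lymph node (-0.08 ± 0.22). It was higher in lymph node than thymus PDPN- cells (1.75 ± 0.22) and in PDPN+BP3+ than in PDPN+BP3- cells (0.94 ± 0.22). Against lymph node PDPN- cells the PDPN+BP3+ cells were higher by 0.86 ± 0.22, a call lost without PDPN+BP3+ replicate 1 (0.67, adjusted p 0.055). Of 3 platelet markers measured, Pf4 was also higher in thymus PDPN+BP3- than thymus PDPN- cells (1.99 ± 0.23) and in PDPN+BP3+ than in PDPN+BP3- cells (1.34 ± 0.23). Like Itga2, it was higher in PDPN+BP3+ than lymph node PDPN- cells (means 6.03 and 3.99). Where Itga2 had no call, Pf4 was higher in lymph node PDPN+BP3- than PDPN- cells (4.69 and 3.99). It was lower there than in thymus PDPN+BP3- cells (5.78), again without a call of Itga2. Pf4 had no call between organs in PDPN- cells (3.99 and 3.79), where Itga2 rose in lymph node. Ppbp and Gp9 passed in no comparison, with population means of 1.98 to 2.62. On single arrays the 3 averaged 3.20 to 3.51 in thymus PDPN+BP3-, 2.75 to 2.83 in thymus PDPN-, 3.46 to 3.71 in PDPN+BP3+ and 2.64 to 3.15 in the other lymph node populations. Their part in the result for Itga2 was not tested.

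**Figure D2:**
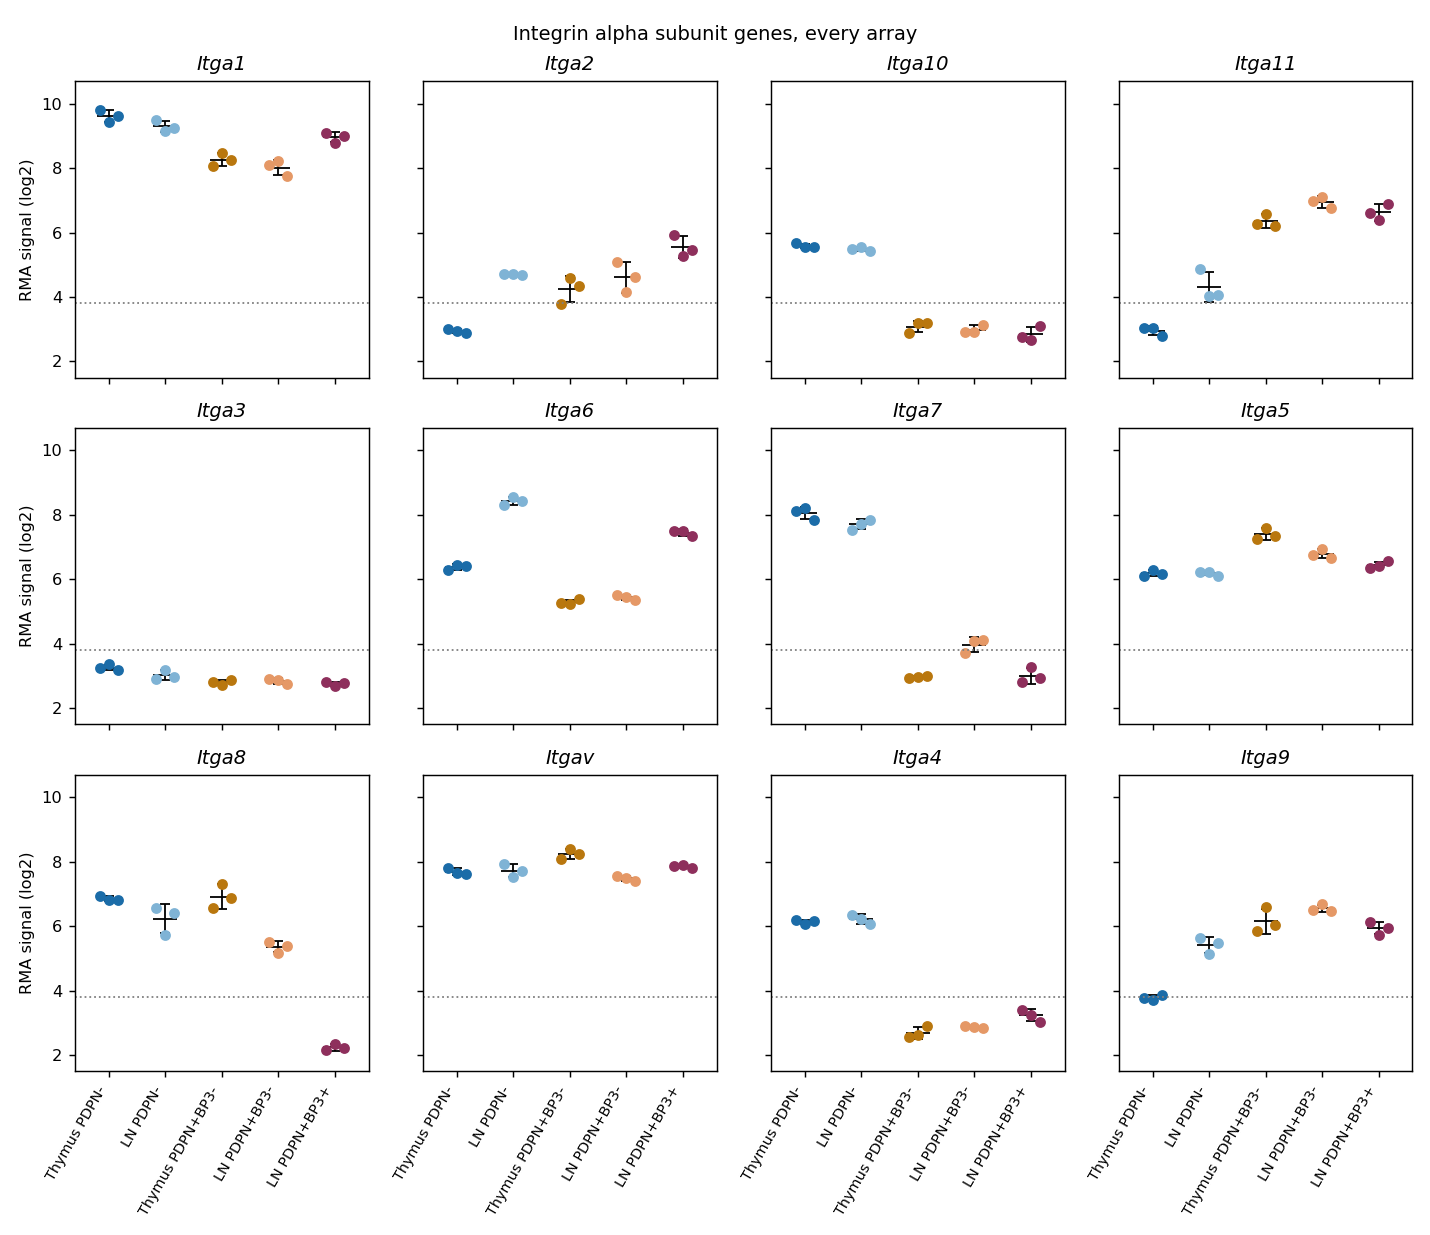
RMA signal on a log2 scale (y axis) of 12 integrin alpha genes on every array of the 5 populations (x axis, LN for lymph node). Dots are single arrays, the short line and bars are mean ± SD of 3 arrays, and the dotted line is the table median of 3.80. Itga4, Itga7 and Itga10 are high in the PDPN- populations, and Itga8 is lowest in PDPN+BP3+ cells, at 2.15 to 2.36.

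Of the laminin-binding alpha chains, Itga7 and Itga6 were higher in PDPN- cells of both organs, and Itga3 stayed below the table median everywhere. Itga7, the laminin receptor chain of muscle, read 8.12, 8.22 and 7.85 in thymus PDPN- cells and 7.54, 7.73 and 7.85 in lymph node PDPN- cells. It read 2.95, 2.97 and 2.99 in thymus PDPN+BP3-, 3.71, 4.08 and 4.13 in lymph node PDPN+BP3- and 2.80, 3.28 and 2.93 in PDPN+BP3+ cells. The PDPN- arrays were far above all others and those of the 2 organs overlapped at 7.85. Its differences from PDPN- cells were -5.09 ± 0.15 in thymus (adjusted p 2.68e-13), -3.73 ± 0.15 in lymph node PDPN+BP3- (1.18e-11) and -4.70 ± 0.15 in PDPN+BP3+ cells (6.70e-13).

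Within the podoplanin-positive cells, Itga7 was higher in lymph node PDPN+BP3- cells than in thymus PDPN+BP3- cells (1.0 ± 0.15, adjusted p 0.000134). It was lower in PDPN+BP3+ than in lymph node PDPN+BP3- cells (-0.97 ± 0.15, adjusted p 0.000141). Of the 12 mural markers, Itga7 included, 8 were higher and 2 lower in lymph node than in thymus PDPN+BP3- cells. Between PDPN+BP3+ and PDPN+BP3- cells, 5 of the 12 were higher and Itga7 was the only 1 lower. The part of the mural markers in these differences of Itga7 was not tested.

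Itga6, the laminin receptor chain common in epithelium and endothelium, differed by both organ and BP3. It read 6.28, 6.45 and 6.40 in thymus PDPN- cells and 8.30, 8.54 and 8.43 in lymph node PDPN- cells. It read 5.28, 5.22 and 5.38 in thymus PDPN+BP3-, 5.51, 5.46 and 5.35 in lymph node PDPN+BP3- and 7.51, 7.51 and 7.34 in PDPN+BP3+ cells. Except for the PDPN+BP3- cells of the 2 organs, no populations overlapped. Itga6 was lower in PDPN+BP3- than in PDPN- cells, with differences of -1.08 ± 0.10 in thymus and -2.98 ± 0.10 in lymph node. It was higher in PDPN+BP3+ than in PDPN+BP3- cells by 2.01 ± 0.10 (adjusted p 5.17e-10) and in lymph node than in thymus PDPN- cells by 2.05 ± 0.10 (2.02e-09). PDPN+BP3+ cells stayed below PDPN- cells (-0.97 ± 0.10). Itga3 averaged 2.76 to 3.26 over the populations and passed only in thymus among the 6 pairwise comparisons, where it was lower in PDPN+BP3- cells (-0.46 ± 0.10, adjusted p 0.0027), with both means under the table median.

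The alpha chains that bind the RGD motif were Itga5, the fibronectin receptor chain, Itgav, the vitronectin receptor chain, Itga8, a nephronectin receptor chain of smooth muscle and mesenchyme, and Itga2b of platelets. Itga8 read 6.94, 6.80 and 6.82 in thymus PDPN- cells, 6.57, 5.74 and 6.40 in lymph node PDPN- cells and 6.56, 7.31 and 6.89 in thymus PDPN+BP3- cells. It read 5.52, 5.18 and 5.40 in lymph node PDPN+BP3- cells and 2.15, 2.36 and 2.22 in PDPN+BP3+ cells. Every PDPN+BP3+ array was thus under the table median while every other array was above it. Itga8 was lower in PDPN+BP3+ cells than in PDPN- cells (-3.99 ± 0.20, adjusted p 1.61e-10) and than in PDPN+BP3- cells (-3.12 ± 0.20, 6.93e-09). It was also lower in lymph node than in thymus PDPN+BP3- cells (-1.55 ± 0.20) and in PDPN+BP3- than in PDPN- cells of the lymph node (-0.87 ± 0.20). The thymus subsets did not differ by call (0.07 ± 0.20).

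Itga5 averaged 7.40 ± 0.18 in thymus PDPN+BP3-, 6.79 ± 0.14 in lymph node PDPN+BP3- and 6.44 ± 0.10 in PDPN+BP3+ cells. PDPN- cells had 6.19 ± 0.09 (thymus) and 6.19 ± 0.07 (lymph node). It was higher in PDPN+BP3- cells by 1.21 ± 0.12 in thymus and 0.60 ± 0.12 in lymph node, and lower in lymph node than in thymus PDPN+BP3- cells (-0.61 ± 0.12). Itgav, which pairs with several beta chains, read 8.07, 8.38 and 8.24 in thymus PDPN+BP3- cells and 7.55, 7.50 and 7.41 in lymph node PDPN+BP3- cells. It read 7.81, 7.65 and 7.63 in thymus PDPN-, 7.93, 7.52 and 7.70 in lymph node PDPN- and 7.87, 7.90 and 7.79 in PDPN+BP3+ cells. The thymus PDPN+BP3- arrays were the highest and those of lymph node PDPN+BP3- cells mostly the lowest. Itgav was higher in thymus PDPN+BP3- than thymus PDPN- cells (0.53 ± 0.12) and lower in lymph node than thymus PDPN+BP3- cells (-0.74 ± 0.12). The rise of Itgav in PDPN+BP3+ over PDPN+BP3- cells (0.37 ± 0.12, adjusted p 0.0445) was lost under 14 of 22 alternatives, among them without any of the 6 arrays compared (0.33 to 0.40).

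Itga2b stayed below the table median, at population means of 2.77 to 3.41. It was higher in lymph node PDPN+BP3- cells than in lymph node PDPN- (0.45 ± 0.14), PDPN+BP3+ (difference -0.55 ± 0.14) and thymus PDPN+BP3- cells (0.46 ± 0.14). The first of these calls was lost without any of the 3 PDPN+BP3- arrays (0.40 to 0.47) and without lymph node PDPN- replicate 3 (0.30). The second was lost without PDPN+BP3+ replicate 2 (-0.49) or lymph node PDPN+BP3- replicate 3 (-0.50). The call between organs was lost without any of the 3 lymph node arrays (0.42 to 0.49) or without thymus PDPN+BP3- replicate 1 (0.41).

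Itga4 and Itga9 are related chains that bind VCAM1, fibronectin or tenascin C, and they ran in opposite directions. Itga4 read 6.19, 6.07 and 6.16 in thymus PDPN- cells and 6.36, 6.23 and 6.08 in lymph node PDPN- cells. It read 2.55, 2.63 and 2.89 in thymus PDPN+BP3-, 2.89, 2.87 and 2.84 in lymph node PDPN+BP3- and 3.41, 3.25 and 3.04 in PDPN+BP3+ cells. All PDPN- arrays lay above the table median and all podoplanin-positive arrays below it. The differences were -3.45 ± 0.12 in thymus (adjusted p 2.00e-12), -3.36 ± 0.12 in lymph node PDPN+BP3- (4.81e-12) and -2.99 ± 0.12 in PDPN+BP3+ cells (1.24e-11). The step from PDPN+BP3- to PDPN+BP3+ cells (0.37 ± 0.12, adjusted p 0.0487) was lost under 14 of 22 alternatives, including without PDPN+BP3+ replicate 1 (0.28) or 2 (0.36) and without any lymph node PDPN+BP3- array (0.35 to 0.38).

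Itga9, whose ligands include tenascin C, read 3.78, 3.71 and 3.86 in thymus PDPN- cells and 5.62, 5.14 and 5.48 in lymph node PDPN- cells. It read 5.84, 6.59 and 6.04 in thymus PDPN+BP3-, 6.49, 6.69 and 6.48 in lymph node PDPN+BP3- and 6.12, 5.74 and 5.95 in PDPN+BP3+ cells. The thymus PDPN- arrays stood apart at the table median, and the podoplanin-positive populations overlapped between thymus and lymph node. Itga9 was higher in PDPN+BP3- cells than in PDPN- cells by 2.37 ± 0.17 in thymus and 1.14 ± 0.17 in lymph node, and higher in lymph node than in thymus PDPN- cells by 1.63 ± 0.17. PDPN+BP3+ cells lay between, above PDPN- cells (0.52 ± 0.17, adjusted p 0.0323) and below PDPN+BP3- cells (-0.62 ± 0.17, adjusted p 0.0202). The call over PDPN- cells was lost without PDPN+BP3+ replicate 1 (0.43) or 3 (0.52) and without lymph node PDPN- replicate 2 (0.39) or 3 (0.56). It was also lost after quantile normalization (0.40). The call below PDPN+BP3- cells was lost without PDPN+BP3+ replicate 2 (-0.52) or 3 (-0.62) and without lymph node PDPN+BP3- replicate 2 (-0.55).

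The 5 alpha chains of white blood cells, Itgad, Itgae, Itgal, Itgam and Itgax, passed in none of the 6 pairwise comparisons, and none of their population means exceeded the table median. Itgal, the alpha chain of LFA-1, averaged 3.54 in thymus PDPN- cells, 3.28 in thymus PDPN+BP3- cells and 2.84 to 3.05 in lymph node cells. The lymphocyte beta chains Itgb2 and Itgb7 were also low, at 2.40 to 2.89 and 2.50 to 3.11. Itgb2 read 2.71, 2.85 and 3.11 in thymus PDPN- cells and 2.42, 2.38 and 2.41 in lymph node PDPN- cells, with no overlap. That difference (-0.49 ± 0.14, adjusted p 0.0406) was lost under 9 of 21 alternatives, including without thymus PDPN- replicate 2 (-0.51) or 3 (-0.38) and without any lymph node PDPN- array (-0.50 to -0.48). T lineage markers also fell from thymus to lymph node PDPN- cells, with 9 of 10 lower and 0 higher, and their part in the result for Itgb2 was not tested.

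Among the beta chains, Itgb1, Itgb5, Itgb3 and Itgb8 had a population above the table median, and Itgb4 and Itgb6 of epithelium did not. Itgb1, the shared partner of all 4 collagen-binding and of the laminin-binding alpha chains, averaged 9.94 in both PDPN- populations and 9.26 to 9.36 in the podoplanin-positive populations. It was lower than in PDPN- cells in all 3, with differences of -0.60 ± 0.12 in thymus, -0.58 ± 0.12 in lymph node PDPN+BP3- and -0.68 ± 0.12 in PDPN+BP3+ cells. A second row of Itgb1 averaged 4.01 in thymus PDPN+BP3- and 4.41 in thymus PDPN- cells. In lymph node it averaged 4.18 in PDPN+BP3-, 4.33 in PDPN+BP3+ and 4.15 in PDPN- cells, so it was not lower than in PDPN- cells there. With the mean of both rows the lymph node differences were -0.27 and -0.25 and no longer passed.

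Itgb3, the beta chain of the vitronectin receptor and of platelets, read 4.19, 4.32 and 4.50 in thymus PDPN+BP3- cells and 4.92, 4.29 and 4.63 in lymph node PDPN+BP3- cells. It read 2.89, 3.04 and 3.13 in thymus PDPN-, 3.31, 3.08 and 3.20 in lymph node PDPN- and 3.34, 3.03 and 3.03 in PDPN+BP3+ cells. Only the PDPN+BP3- arrays of both organs exceeded the table median. Itgb3 was higher in PDPN+BP3- cells than in PDPN- cells (1.32 ± 0.15 in thymus, 1.42 ± 0.15 in lymph node) and lower in PDPN+BP3+ than in PDPN+BP3- cells (-1.48 ± 0.15, adjusted p 1.73e-06).

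Itgb8, a chain known for binding latent TGF-β together with Itgav, marked thymus PDPN+BP3- cells. It read 5.28, 4.75 and 4.92 there and 3.40, 3.56 and 3.72 in thymus PDPN- cells. It read 3.14, 3.20 and 2.92 in lymph node PDPN-, 3.07, 3.11 and 2.76 in lymph node PDPN+BP3- and 3.17, 2.60 and 3.09 in PDPN+BP3+ cells. Only the thymus PDPN+BP3- arrays were above the table median. Itgb8 was higher in thymus PDPN+BP3- than in thymus PDPN- cells (1.42 ± 0.17, adjusted p 5.65e-06) and lower in lymph node than in thymus PDPN+BP3- cells (-2.0 ± 0.17, adjusted p 3.44e-07). Itgb5, another partner of Itgav, averaged 6.51 in PDPN+BP3+ cells, below lymph node PDPN- (-0.65 ± 0.16) and PDPN+BP3- cells (-0.75 ± 0.16), and 7.16 to 7.72 elsewhere.

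**Figure D3:**
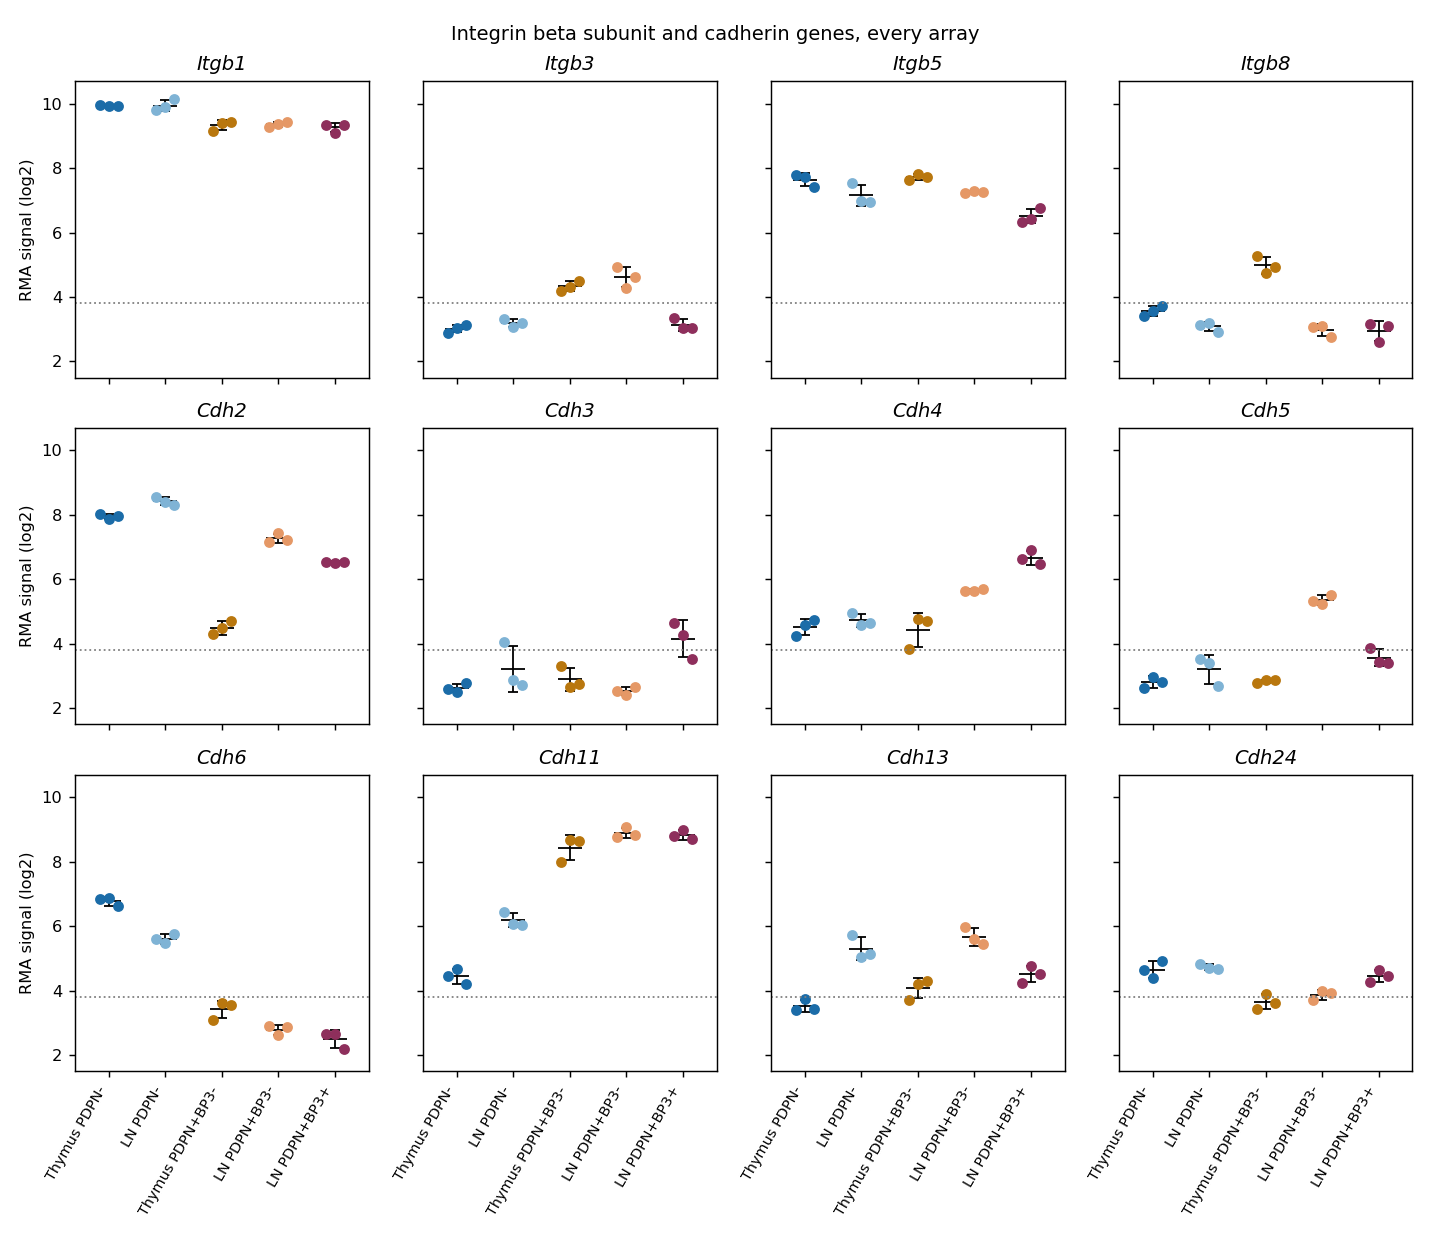
RMA signal on a log2 scale (y axis) of 4 integrin beta genes and 8 cadherin genes on every array of the 5 populations (x axis, LN for lymph node). Dots are single arrays, the short line and bars are mean ± SD of 3 arrays, and the dotted line is the table median of 3.80. Itgb8 is above the line in thymus PDPN+BP3- cells only among these populations, and Cdh5 in lymph node PDPN+BP3- cells, apart from 1 PDPN+BP3+ array at 3.88.

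Of the 5 type I cadherins, Cdh2, Cdh4 and Cdh3 had a population above the table median. Cdh2, N-cadherin, read 8.02, 7.87 and 7.97 in thymus PDPN- cells and 8.56, 8.41 and 8.32 in lymph node PDPN- cells. It read 4.29, 4.48 and 4.70 in thymus PDPN+BP3-, 7.15, 7.43 and 7.23 in lymph node PDPN+BP3- and 6.55, 6.51 and 6.54 in PDPN+BP3+ cells. None of the 5 populations overlapped in Cdh2, with thymus PDPN+BP3- cells far below the rest. Set against PDPN- cells, PDPN+BP3- cells differed by -3.46 ± 0.12 in thymus (adjusted p 1.57e-12) and -1.16 ± 0.12 in lymph node (1.21e-06). Cdh2 was higher in lymph node than in thymus PDPN+BP3- cells (2.78 ± 0.12, adjusted p 1.24e-10) and lower in PDPN+BP3+ than in PDPN+BP3- cells (-0.74 ± 0.12). Its smaller difference between the organs in PDPN- cells (0.48 ± 0.12, adjusted p 0.0154) was lost without thymus PDPN- replicate 2 (0.44) or lymph node PDPN- replicate 1 (0.41).

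Cdh4, R-cadherin, read 6.62, 6.90 and 6.48 in PDPN+BP3+ cells and 5.65, 5.63 and 5.69 in lymph node PDPN+BP3- cells. It read 4.25, 4.57 and 4.73 in thymus PDPN-, 4.95, 4.58 and 4.65 in lymph node PDPN- and 3.83, 4.76 and 4.72 in thymus PDPN+BP3- cells, where replicate 1 was the lowest of all arrays. The podoplanin-positive lymph node populations stood above the other 3 and apart from each other. Cdh4 was higher than in lymph node PDPN- cells in PDPN+BP3- (0.93 ± 0.21) and PDPN+BP3+ cells (1.94 ± 0.21, adjusted p 1.92e-06). It was higher in PDPN+BP3+ than in PDPN+BP3- cells (1.01 ± 0.21) and in lymph node than in thymus PDPN+BP3- cells (1.22 ± 0.21).

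Cdh3, P-cadherin, read 4.66, 4.27 and 3.53 in PDPN+BP3+ cells against 2.55, 2.40 and 2.66 in lymph node PDPN+BP3- cells (1.62 ± 0.31, adjusted p 0.00111). It read 4.05, 2.88 and 2.72 in lymph node PDPN- cells, so replicate 1 of these overlapped the PDPN+BP3+ arrays, and 2.52 to 3.30 in thymus cells. The difference of PDPN+BP3+ from PDPN- cells (0.94 ± 0.31, adjusted p 0.0311) was lost without PDPN+BP3+ replicate 1 (0.68) or 2 (0.88) and without lymph node PDPN- replicate 2 (0.77) or 3 (0.69).

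Cdh1, E-cadherin of epithelium, was low in all populations. It read 2.68, 2.97 and 3.25 in thymus PDPN-, 2.34, 2.44 and 2.81 in thymus PDPN+BP3- and 1.94 to 2.31 on the lymph node arrays. All 6 thymus arrays exceeded all 9 lymph node arrays. Cdh1 was lower in lymph node than in thymus PDPN- cells (-0.82 ± 0.16, adjusted p 0.00226), while 5 of 8 epithelium markers were lower and 0 higher there, and their part was not tested. Its difference between the thymus subsets (-0.44 ± 0.16, adjusted p 0.0471) was lost under 12 of 21 alternatives, among them without thymus PDPN+BP3- replicate 1 (-0.34) or 2 (-0.39) and without thymus PDPN- replicate 2 (-0.44) or 3 (-0.29). Between these subsets 2 of 8 epithelium markers were also lower in PDPN+BP3- cells and 0 higher, and their part was not tested. Cdh15 of skeletal muscle averaged 2.10 to 2.24 and passed in no comparison.

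Among 13 type II cadherins, Cdh11, Cdh6, Cdh5 and Cdh24 had a population above the table median. Cdh11, the cadherin of fibroblasts and osteoblasts, read 4.45, 4.67 and 4.20 in thymus PDPN- cells and 6.44, 6.07 and 6.04 in lymph node PDPN- cells. It read 7.98, 8.68 and 8.65 in thymus PDPN+BP3-, 8.76, 9.08 and 8.84 in lymph node PDPN+BP3- and 8.79, 8.99 and 8.71 in PDPN+BP3+ cells. Every podoplanin-positive array lay above every PDPN- array, and the 2 podoplanin-positive lymph node populations overlapped. Cdh11 was higher than in PDPN- cells by 4.0 ± 0.18 in thymus (adjusted p 4.85e-11), 2.71 ± 0.18 in lymph node PDPN+BP3- (8.47e-09) and 2.65 ± 0.18 in PDPN+BP3+ cells (9.51e-09). In PDPN- cells it was higher in lymph node than in thymus (1.74 ± 0.18).

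Cdh6, K-cadherin of kidney and mesenchyme, ran the other way. It read 6.85, 6.87 and 6.62 in thymus PDPN- cells and 5.59, 5.47 and 5.76 in lymph node PDPN- cells. It read 3.10, 3.61 and 3.54 in thymus PDPN+BP3-, 2.89, 2.61 and 2.86 in lymph node PDPN+BP3- and 2.66, 2.67 and 2.18 in PDPN+BP3+ cells. The PDPN- arrays were all above the table median and the podoplanin-positive arrays all below. Its differences from PDPN- cells were -3.36 ± 0.16 in thymus, -2.82 ± 0.16 in lymph node PDPN+BP3- and -3.10 ± 0.16 in PDPN+BP3+ cells. Cdh6 was lower in lymph node than in thymus in PDPN- cells (-1.17 ± 0.16) and in PDPN+BP3- cells (-0.63 ± 0.16), the latter lost without lymph node PDPN+BP3- replicate 2 (-0.54, adjusted p 0.063).

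Cdh5, VE-cadherin of endothelial junctions, was highest in lymph node PDPN+BP3- cells. It read 5.32, 5.22 and 5.53 there, 3.88, 3.45 and 3.39 in PDPN+BP3+ cells and 3.52, 3.40 and 2.70 in lymph node PDPN- cells. In thymus it read 2.78, 2.87 and 2.87 in PDPN+BP3- cells and 2.62, 2.98 and 2.83 in PDPN- cells. The lymph node PDPN+BP3- arrays lay above all others. Cdh5 was higher in these cells than in lymph node PDPN- cells (2.15 ± 0.19, adjusted p 1.84e-07) and thymus PDPN+BP3- cells (2.52 ± 0.19, 8.32e-08), and PDPN+BP3+ cells were lower (-1.78 ± 0.19, 2.54e-06). It did not pass between the thymus subsets (0.03 ± 0.19) or between PDPN+BP3+ and PDPN- cells (0.37 ± 0.19).

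Some other endothelial markers moved with Cdh5 and others did not. Of 12 endothelial markers, Cdh5 included, 7 were higher and 0 lower in lymph node PDPN+BP3- than PDPN- cells, and 7 higher and 0 lower in lymph node than thymus PDPN+BP3- cells. In each of these comparisons 5 had no call. PDPN+BP3+ cells had 9 lower and 0 higher than PDPN+BP3- cells. The 11 markers other than Cdh5 averaged 3.81 to 4.26 on the lymph node PDPN+BP3- arrays and 3.13 to 3.64 on the others. Pecam1 stood at 5.36 in lymph node PDPN+BP3- cells, but Kdr, Tie1, Erg, Flt1 and Robo4, at 2.86, 3.37, 3.71, 3.12 and 3.00, stayed below the table median. Emcn was highest in thymus PDPN- cells, at 7.72. Tek averaged 4.81 in thymus PDPN+BP3- cells, near its 5.14 in lymph node PDPN+BP3- cells. Ptprb and Flt1 averaged 4.42 and 3.18 in lymph node PDPN- cells, against 4.12 and 3.12 in lymph node PDPN+BP3- cells. The part of endothelial RNA in the result for Cdh5 was not tested.

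Cdh24 was higher in PDPN- cells, at 4.65 in thymus and 4.73 in lymph node, than in PDPN+BP3- cells (-1.0 ± 0.15 and -0.86 ± 0.15). It was higher in PDPN+BP3+ than PDPN+BP3- cells (0.58 ± 0.15), a call lost without PDPN+BP3+ replicate 2 (0.49) or lymph node PDPN+BP3- replicate 1 (0.50) and with the mean of its 2 rows (0.22). The second row of Cdh24 went the other way with BP3, at 3.21 in PDPN+BP3+ and 3.35 in lymph node PDPN+BP3- cells. It averaged 3.72 in lymph node PDPN-, 3.45 in thymus PDPN+BP3- and 3.55 in thymus PDPN- cells. Cdh22 was under the table median in every population. It averaged 3.36 in PDPN+BP3+ and 2.50 in lymph node PDPN+BP3- cells (0.86 ± 0.18, adjusted p 0.00328). Its difference from PDPN- cells (0.61 ± 0.18) was lost without PDPN+BP3+ replicate 2 (0.62) or 3 (0.42) and without lymph node PDPN- replicate 1 (0.59) or 3 (0.45). Cdh19, a cadherin of Schwann cell precursors, and Cdh9 passed between the thymus subsets at 0.35 ± 0.10 and 0.27 ± 0.09 with all means at 2.18 or below. Cdh19 did not pass without thymus PDPN+BP3- replicate 3 (0.32) or thymus PDPN- replicate 1 (0.33). Cdh9 did not pass without thymus PDPN+BP3- replicate 2 (0.24) or 3 (0.28) or without any thymus PDPN- array (0.25 to 0.29), nor after cyclic loess (0.22) or quantile normalization (0.23). Cdh7, Cdh8, Cdh10, Cdh12, Cdh18 and Cdh20, most of them known from nervous tissue, passed in no comparison.

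Of the other cadherins, Cdh13, a cadherin held by a lipid anchor and found in vessels, differed by organ. It read 5.73, 5.05 and 5.14 in lymph node PDPN-, 5.96, 5.60 and 5.44 in lymph node PDPN+BP3- and 4.25, 4.75 and 4.53 in PDPN+BP3+ cells. It read 3.40, 3.74 and 3.42 in thymus PDPN- and 3.72, 4.20 and 4.31 in thymus PDPN+BP3- cells. The lymph node PDPN- and PDPN+BP3- arrays were above all thymus arrays. Cdh13 was higher in lymph node than in thymus by 1.79 ± 0.20 in PDPN- cells (adjusted p 1.91e-05) and 1.59 ± 0.20 in PDPN+BP3- cells (3.36e-05). PDPN+BP3+ cells were below PDPN+BP3- (-1.16 ± 0.20) and PDPN- cells (-0.80 ± 0.20). Cdh16, Cdh17, Cdh23 and Cdh26 passed in none of the pairwise comparisons.

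By comparison, PDPN+BP3+ cells differed from PDPN- cells in 17 members, 7 higher and 10 lower, or 34.7% against 27.3% of all genes (16.1% higher and 11.2% lower). Within podoplanin-positive lymph node cells, 9 members were higher and 9 lower in PDPN+BP3+ cells, or 36.7% against 16.2% of all genes (8.49% higher and 7.74% lower). Arrays did not overlap for 23 and 22 members in these comparisons, against 39.0% and 32.9% of all genes. The largest rise with BP3 was that of Itga6 (2.01 ± 0.10), followed by Cdh3 and Cdh4. The largest fall was that of Itga8 (-3.12 ± 0.20), followed by Cdh5, Itgb3 and Cdh13. The 3 lymph node comparisons share arrays, so their calls are given side by side and were not set against each other.

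**Figure D4:**
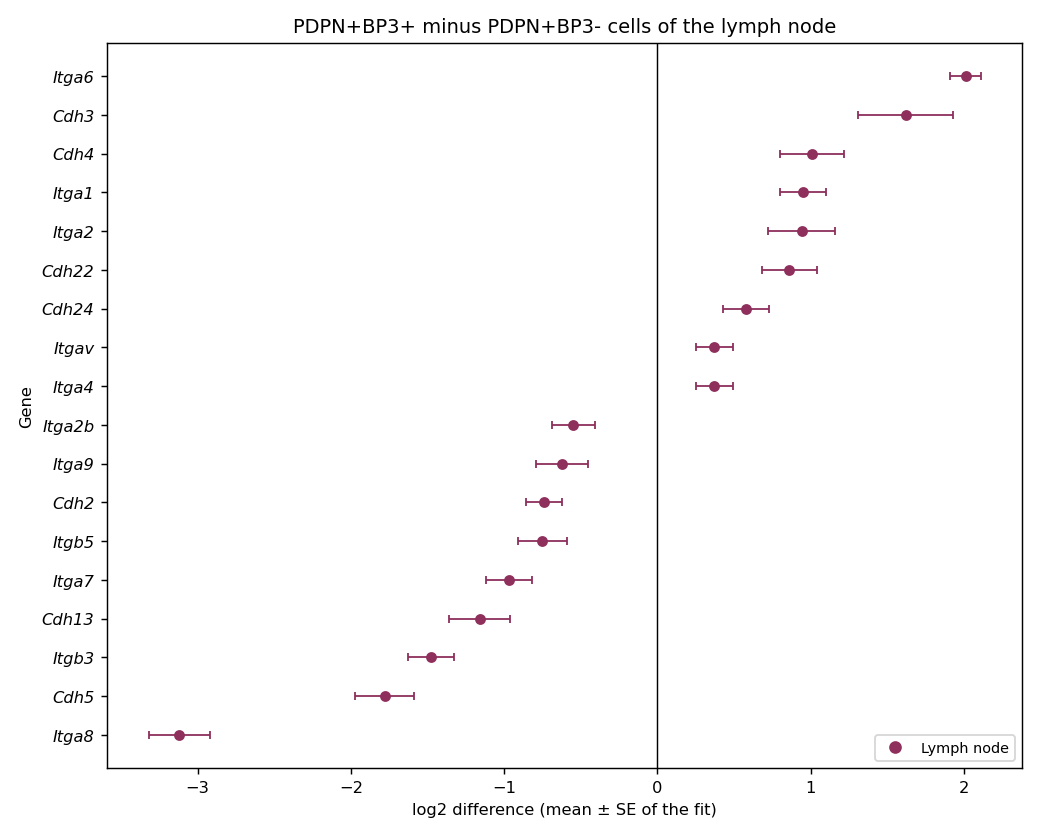
Log2 difference between PDPN+BP3+ and PDPN+BP3- cells of the lymph node (x axis) for the 18 members past the threshold (y axis), as mean ± SE of the limma fit with 3 arrays per population. Itga6 is highest at 2.01 and Itga8 lowest at -3.12.

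Between the organs, 11 members differed in PDPN+BP3- cells, 6 higher and 5 lower in lymph node, or 22.4% against 17.1% of all genes (11.8% higher and 5.29% lower). In PDPN- cells 10 differed, 7 higher and 3 lower, or 20.4% against 9.61% of all genes (4.42% higher and 5.19% lower). Arrays did not overlap for 19 and 18 members, against 29.2% and 24.7% of all genes. The comparisons have no array in common but share the estimate of spread of the same fit. Of the members called, Cdh2 and Cdh13 were higher and Cdh6 was lower in lymph node in both, which is 27.3% of the PDPN+BP3- calls and 30.0% of the PDPN- calls, and 0 passed with opposite signs. Over all genes, calls of the same sign made up 18.5% and 33.0%, and calls of opposite sign 6.24% and 11.1%. In PDPN+BP3- cells the larger falls in lymph node were those of Itgb8 (-2.0 ± 0.17) and Itga8 (-1.55 ± 0.20), and the larger rises those of Cdh2 (2.78 ± 0.12) and Cdh5 (2.52 ± 0.19). In PDPN- cells Itga6 (2.05 ± 0.10), Cdh13, Itga2 (1.75 ± 0.22), Cdh11, Itga9 and Itga11 were higher in lymph node.

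**Figure D5:**
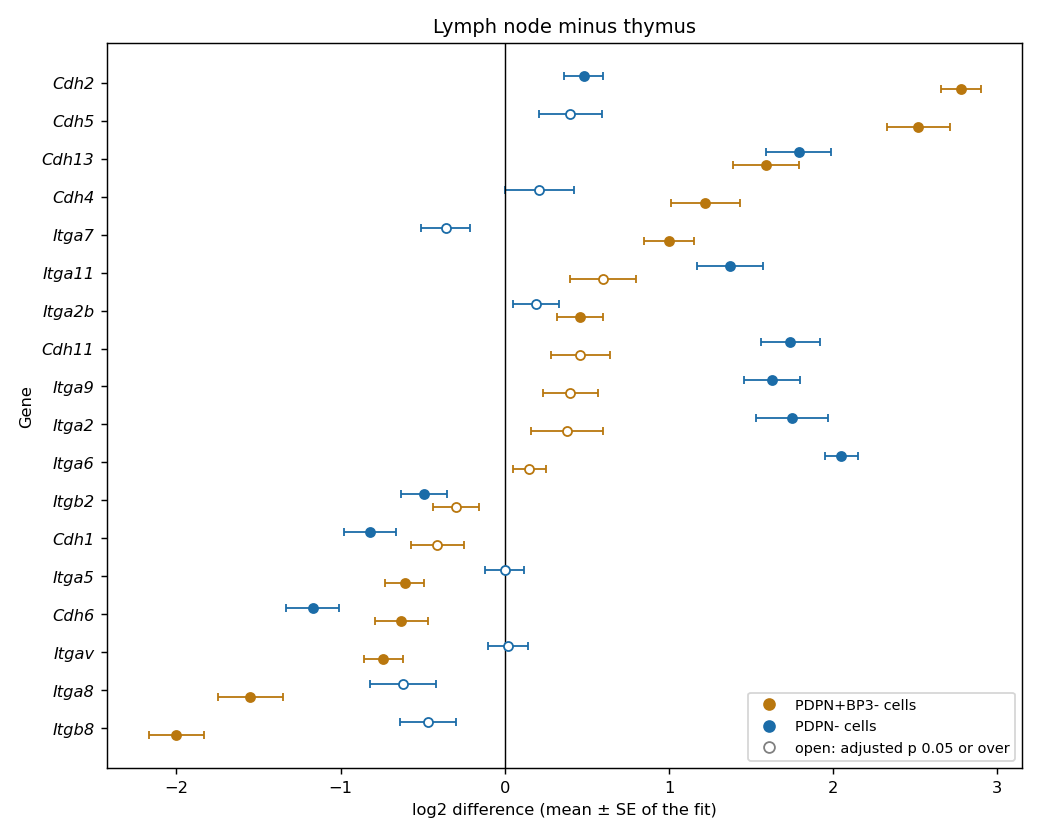
Log2 difference between lymph node and thymus (x axis) in PDPN+BP3- and in PDPN- cells for each member past the threshold in either (y axis), as mean ± SE of the limma fit with 3 arrays per population. Filled points have an adjusted p under 0.05. Cdh2, Cdh13 and Cdh6 are filled in both cell types.

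Whether the subset difference itself differed between the organs was tested with an interaction term, lymph node minus thymus. It passed for 12 of 49 members, 4 higher and 8 lower, or 24.5% against 12.7% of all genes (8.67% higher and 4.05% lower). The largest were Cdh2 (2.30 ± 0.17, adjusted p 1.44e-07), Cdh5 (2.12 ± 0.26, 4.36e-05) and Itga6 (-1.90 ± 0.15, 2.61e-07). For Cdh2 and Itga7 (1.36 ± 0.21) the fall in PDPN+BP3- cells was smaller in lymph node, and for Itga6 it was larger. For Cdh11 (-1.29 ± 0.26) and Itga9 (-1.23 ± 0.24) the rise was smaller in lymph node. Itga4, Itga10, Itga1, Itgb1, Itgb3 and Cdh24 had interactions of 0.00 to 0.15, with standard errors of 0.16 to 0.22, and none passed. Cdh6 (0.54 ± 0.23, adjusted p 0.14) and Itga11 (-0.77 ± 0.28, adjusted p 0.0896) had larger interactions that did not pass either.

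Over all genes, the split of calls by direction depended on scaling where thymus PDPN+BP3- cells entered. The share of lower calls was 64.0% between the thymus subsets, 30.9% between organs in PDPN+BP3- cells and 31.8% for the interaction. After cyclic loess it was 44.5%, 53.9% and 57.8%, after quantile normalization 54.4%, 48.9% and 50.1%, and without thymus PDPN+BP3- replicate 1 it was 52.5%, 45.4% and 44.5%. The members' own counts changed little: after cyclic loess they were 10 higher and 11 lower, 6 and 6, and 3 and 9, and without that replicate 11 and 10, 5 and 5, and 4 and 8.

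Proteins that join integrins to actin were followed together with kinases and other regulators in a list of 30 genes, of which 26 were measured. In PDPN+BP3- cells 13 were lower and 3 higher than in PDPN- cells of the thymus (median -0.43, against -0.05 over all genes), and 11 lower and 5 higher in lymph node (-0.34, against -0.01). Vinculin (Vcl, -1.63 ± 0.14), α-actinin (Actn1, -1.22 ± 0.13), the tensin Tns1 (-1.19 ± 0.14) and the kindlin Fermt2 (-1.15 ± 0.13) were lower in thymus PDPN+BP3- cells. Among the lymph node subsets, filamin (Flna, -1.41 ± 0.16), Lims1 (-1.16 ± 0.14) and Cib1 (-0.97 ± 0.13) were lower and Tns3 was higher (1.23 ± 0.14). PDPN+BP3+ cells had 6 lower and 3 higher than PDPN- cells, and 6 higher and 1 lower than PDPN+BP3- cells. Between organs, 2 were higher and 3 lower in PDPN+BP3- cells and 2 higher and 2 lower in PDPN- cells. Over all genes, 28.5% and 23.1% were called between PDPN+BP3- and PDPN- cells of thymus and lymph node. For PDPN+BP3+ against PDPN- and PDPN+BP3- cells the shares were 27.3% and 16.2%, and between organs 17.1% and 9.61%. Counts of this list and of the lists that follow stand beside these shares, and no list was tested as a set. The muscle talin Tln2 was lower in lymph node than in thymus PDPN- cells (-1.52 ± 0.14).

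All 20 genes on a list of catenins, nectins and other partners of cadherin junctions were measured. In PDPN+BP3- cells of the thymus 10 were lower and 3 higher than in PDPN- cells (median -0.46, against -0.05 over all genes). In lymph node 8 were lower and 5 higher (-0.20, against -0.01). The α-catenin Ctnna3 (-3.04 ± 0.15 in thymus and -2.53 ± 0.15 in lymph node) and the LIM protein Ajuba (-3.79 ± 0.18 and -2.55 ± 0.18) were lower in both organs, as was the phosphatase Ptprk (-2.10 ± 0.15 and -2.45 ± 0.15). Afadin (Afdn) was higher in thymus PDPN+BP3- cells (2.30 ± 0.16). PDPN+BP3+ cells had 8 lower and 4 higher than PDPN- cells, and 2 lower and 2 higher than PDPN+BP3- cells. Between organs, 6 were higher and 3 lower in PDPN+BP3- cells and 1 higher and 4 lower in PDPN- cells, where the phosphatase Ptprm (-1.45 ± 0.18) and plakoglobin (Jup, -1.15 ± 0.25) were lower in lymph node.

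Of 40 listed ligands of integrins 36 were measured. In thymus 17 were higher and 9 lower in PDPN+BP3- than in PDPN- cells (median 0.33, against -0.05 over all genes). Collagen I (Col1a1, 3.21 ± 0.13) was higher there, and vitronectin (Vtn, -3.11 ± 0.13) and the laminin chain Lama5 (-3.39 ± 0.18) were lower. In lymph node 7 were higher and 3 lower (-0.03, against -0.01 over all genes). Among them, Col1a2 (1.47 ± 0.11) was higher and the RGD protein Mfge8 (-1.77 ± 0.10) was lower. PDPN+BP3+ cells had 8 higher and 11 lower than PDPN- cells, and 9 higher and 11 lower than PDPN+BP3- cells. Lama2, a laminin chain of muscle basement membrane, was lower in PDPN+BP3+ cells in both comparisons (-5.37 ± 0.16 and -5.80 ± 0.16). The α4β7 ligand Madcam1 was higher in both (3.77 ± 0.25 and 3.95 ± 0.25). Between organs, 10 were higher and 8 lower in lymph node PDPN+BP3- cells and 13 higher and 1 lower in lymph node PDPN- cells. Among the latter, the α4β1 ligand Vcam1 (2.51 ± 0.13), the laminin chain Lama3 (2.20 ± 0.15) and tenascin C (Tnc, 1.84 ± 0.14) were higher.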

How the data were processed

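Mesenchymal cells were sorted from thymus and lymph node and measured on 15 arrays, 3 for each of 5 populations. The deposited values are log2 RMA signals, which the authors made in the Affymetrix Expression Console, per the submitters' processing notes; no version is named in the sources, and the log base was inferred from the range of values, 1.07 to 12.07. Of 24758 rows, 20844 had 1 gene symbol, and the row with the highest mean was kept for each of 18718 genes. All 49 members matched RefSeq by gene identifier with the same symbol. No filter on low values was applied.

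A model with 1 mean per population was fitted to all genes over the 15 arrays with limma 3.58.1 in R 4.3.3 (residual degrees of freedom 10, prior 5.50), with Benjamini-Hochberg adjustment over 18718 genes. The script was tested on simulated data. Up to 6 rises and 6 falls per comparison were named among members past the threshold with arrays that do not overlap, along with Itga7, Cdh5 and all members past the threshold for the interaction, and other members were added so that each is accounted for. Members among the 3 largest of either sign in any comparison have every array printed. From each list up to 4 genes with the smallest adjusted p were named per comparison. The members and the gene lists were chosen with earlier results of these data known, from general knowledge. The arrays come from pools of mice in 3 experiments, and whether populations of the same organ were sorted from the same pool was not established. No array duplicates another. The alternatives were a trended and robust prior, cyclic loess, quantile normalization, a filter on low values, the mean of all rows of a gene, a replicate block, fits on the compared populations only, and leaving out each array in turn. The number of arrays limits the precision.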

Additional observations from a re-analysis of the deposited data

Results flagged for a closer look

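The members listed here had a difference between PDPN+BP3- and PDPN- cells that itself differed between lymph node and thymus by the interaction test of the limma fit, as lymph node minus thymus. Positive interactions were found for Cdh2 (2.30 ± 0.17, adjusted p 1.44e-07), Cdh5 (2.12 ± 0.26, adjusted p 4.36e-05), Itga7 (1.36 ± 0.21, adjusted p 0.000335) and Cdh4 (1.01 ± 0.29, adjusted p 0.0329). Negative interactions were found for Itga6 (-1.90 ± 0.15, adjusted p 2.61e-07), Itgb8 (-1.53 ± 0.24, adjusted p 0.000379), Itga2 (-1.37 ± 0.32, adjusted p 0.00841) and Cdh11 (-1.29 ± 0.26, adjusted p 0.00311). They were also found for Itga9 (-1.23 ± 0.24, adjusted p 0.0028), Itga8 (-0.94 ± 0.28, adjusted p 0.0381), Itgav (-0.76 ± 0.17, adjusted p 0.00587) and Itga5 (-0.61 ± 0.16, adjusted p 0.0211).

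In thymus Itgb8 and Itgav, whose products form a receptor pair, were both higher in PDPN+BP3- cells, and in lymph node neither passed (-0.11 ± 0.17 and -0.23 ± 0.12). Other beta chains of Itgav receptors differed from this. Itgb3 was higher in PDPN+BP3- cells of both thymus and lymph node (1.32 ± 0.15 and 1.42 ± 0.15), and Itgb5 passed in neither (0.08 ± 0.16 and 0.10 ± 0.16). Calls that did not hold under every alternative were those of Itga8, lost under 12 of 22 alternatives (adjusted p up to 0.101), Cdh4, lost under 8 (up to 0.0818), and Itga5, lost under 3 (up to 0.0578). For Itga8 the call was lost without thymus PDPN+BP3- replicate 2 (-0.74) or 3 (-0.95), any thymus PDPN- array (-0.98 to -0.91), lymph node PDPN- replicate 1 (-0.77) or 3 (-0.85), PDPN+BP3+ replicate 3 (-0.94), or lymph node PDPN+BP3- replicate 2 (-0.84) or 3 (-0.95), and in a fit on the compared populations alone (adjusted p 0.0658). For Cdh4 it was lost without thymus PDPN- replicate 2 (0.98) or 3 (0.90), lymph node PDPN- replicate 2 (0.94) or 3 (0.97), or any lymph node PDPN+BP3- array (0.99 to 1.02), and after cyclic loess (0.71). For Itga5 it was lost without thymus PDPN- replicate 1 (-0.57) or lymph node PDPN+BP3- replicate 3 (-0.55), and with a trended and robust prior (-0.61).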

How the results depend on the processing

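Of 107 pairs of member and comparison past the threshold, 85 kept the call under each of up to 22 alternatives that gave a value, 22 lost it under at least 1, and 0 changed sign. The counts of members called stayed within 1.5 times the reported count under all alternatives. Leaving out single arrays gave 19 to 22 members in thymus, 17 to 19 and 14 to 18 for PDPN+BP3- and PDPN+BP3+ against PDPN- cells of the lymph node, and 13 to 19 for PDPN+BP3+ against PDPN+BP3- cells. It gave 9 to 13 and 8 to 11 between organs in PDPN+BP3- and PDPN- cells, and 9 to 12 for the interaction. Cdh5 between the thymus subsets, which did not pass, turned from 0.03 to -0.06 without thymus PDPN- replicate 1, and leaving out single arrays gave -0.06 to 0.12. Between organs in PDPN- cells Cdh5 passed only without lymph node PDPN- replicate 3 (0.65, adjusted p 0.0172).

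With the replicate number as a block, 20, 18, 17, 17, 12, 10 and 11 members passed in the 6 comparisons and the interaction, against 21, 18, 17, 18, 11, 10 and 12 without it. Calls lost with the block were those of Cdh9 in thymus (adjusted p 0.0536), Itga4 and Itgav between PDPN+BP3+ and PDPN+BP3- cells (0.0653 and 0.0585) and Itga8 for the interaction (0.0553). Same-numbered arrays had correlations of -0.174 to 0.288 in their deviations from the group means, over 0.1 in 6 of 30 pairs, and 8 of 15 arrays correlated best with their own number. These figures pool pairs within and between organs. In lymph node, same-numbered pairs had 0.154, 0.0743 and 0.0639 for PDPN+BP3+ with PDPN+BP3- cells. For PDPN- cells they had 0.288, -0.0303 and 0.18 with PDPN+BP3- and -0.0174, 0.0811 and -0.0658 with PDPN+BP3+ cells. The thymus pairs had -0.161, -0.174 and -0.142. The main fit used no pairing, and pairing within 1 organ was not tested separately.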

Other observations

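In the RefSeq gene order 10 pairs of members lie next to each other, of which 7 differed and 3 did not differ in the calls of the 6 pairwise comparisons. Of the pairs that differed, 3 are given here, chosen after their values were seen. Cdh11 lies next to Cdh5. Cdh11 was high in all 3 podoplanin-positive populations, at 8.44 to 8.89, whereas Cdh5 exceeded the table median in lymph node PDPN+BP3- cells alone among population means. Itga2 lies next to Itga1. In PDPN- cells Itga2 was 1.75 ± 0.22 higher in lymph node than in thymus, and Itga1 did not pass there (-0.31 ± 0.15). Cdh3 lies next to Cdh1. Cdh3 was higher in PDPN+BP3+ than in PDPN+BP3- cells (1.62 ± 0.31), and Cdh1 did not pass (0.07 ± 0.16).

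Rows of the array that name a member together with another gene were not used. They were a row of Itga4, with population means of 2.07 to 2.62, and a row of Itgb4, with 2.51 to 3.02, all below the table median. The row of Itga4 with a single symbol ranged from 2.69 to 6.22 over the same populations.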
